A study of Mus musculus with 10 samples.

Results

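Chemokines are small secreted or membrane-bound proteins that guide migrating cells, and their receptors sit on the cells that respond. The genes described here are all gene symbols of the count table that begin with Ccl, Cxcl, Ccr, Cxcr, Cx3c, Xcl or Xcr followed by a number, with a total count of at least 15 over the 10 livers. The pattern matched 59 symbols, of which 47 reached that total, among 24537 symbols in all. They comprise 31 ligands and 16 receptors. A filter on low counts left 39 of the 47 for testing, among 13909 genes tested. The 8 members under the filter are Cxcl5, Ccl27b, Ccl28, Ccl12, Ccr10, Ccr9, Ccr1l1 and Ccr3. The 12 symbols under the total are Ccl1, Ccl11, Ccl17, Ccl20, Ccl26, Ccr4, Ccr6, Ccr8, Cxcl15, Cxcl17, Cxcl3 and Cxcr1.

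Most chemokine receptors are coupled to inhibitory G proteins, and a cell moves up the gradient of the ligands its receptors bind. Inflammatory ligands such as Ccl2 and Cxcl1 are made on demand and bring in monocytes and neutrophils, whereas homeostatic ligands such as Cxcl12, Cxcl13 and Ccl19 place lymphocytes and precursors in tissue. In the liver, ligands are made by hepatocytes, sinusoidal endothelium, stellate cells and macrophages, while receptor transcripts come mainly from resident and incoming leukocytes.

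RNA of whole liver was sequenced in 10 libraries from male mice after editing of hepatocytes in vivo. Each mouse received adeno-associated virus of serotype 8 (AAV8) with saCas9, the Cas9 of Staphylococcus aureus, under the TBG promoter of hepatocytes, and a guide RNA from a U6 promoter, so all groups carry virus and nuclease. The 3 young controls received a Rosa26 guide, a commonly used neutral target, with virus at 7 months and liver taken at 9 months. The 3 old controls received the Rosa26 guide and the 4 old livers labelled Cd44 knockout received a Cd44 guide, with virus at 23 months and liver at 25 months. Guide 4 was used in knockout replicates 1 and 2 and guide 2 in replicates 3 and 4. TBG drives expression in hepatocytes, so the other cells of the liver were not targeted. Replicate numbers only name a liver. The labels do not say that replicates came from separate animals, so p-values measure only the spread between these samples, which may be technical.

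Total counts ranged from 15821198 to 21710228 per liver, and 3 counts corresponded to between 0.131 and 0.198 CPM (counts per 1000000 counts of the effective library size). Cd44, the receptor targeted by the guides, was at 16.6, 11.2 and 10.1 CPM in the young livers, 14.2, 30.0 and 25.9 CPM in the old controls, 18.9 and 29.0 CPM in the guide 4 livers and 17.6 and 13.1 CPM in the guide 2 livers. The livers labelled knockout overlapped both control groups in Cd44, and the comparison with old controls gave a log2 difference of -0.25 ± 0.30 (SE) with an adjusted p of 0.896 (edgeR). Directions drawn from the knockout livers therefore rest on their labels.

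Old control replicate 2 stood apart from the other livers in this gene group. It was the highest of the 3 old controls for 26 of the 39 tested members (66.7%), against 26.0% of all genes tested, and the highest of all 10 livers for 19 of them (48.7%), against 16.2% of all genes. Among the 47 members, 14 had at least 25% of their summed CPM in this liver and 5 had at least 50%, where an equal split over the livers would give 10%. These shares were not computed for all genes. The rule of at least 15 counts in total includes this liver, which held 16 of the 27 counts of Ccr1l1, 1 of these 5. Summed receptor level was 90.5 CPM there and between 12.4 and 45.6 CPM in the other 9 livers. The summed level of the 31 ligands differed less, at 753 CPM against 363 to 525 CPM.

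**Figure D1:**
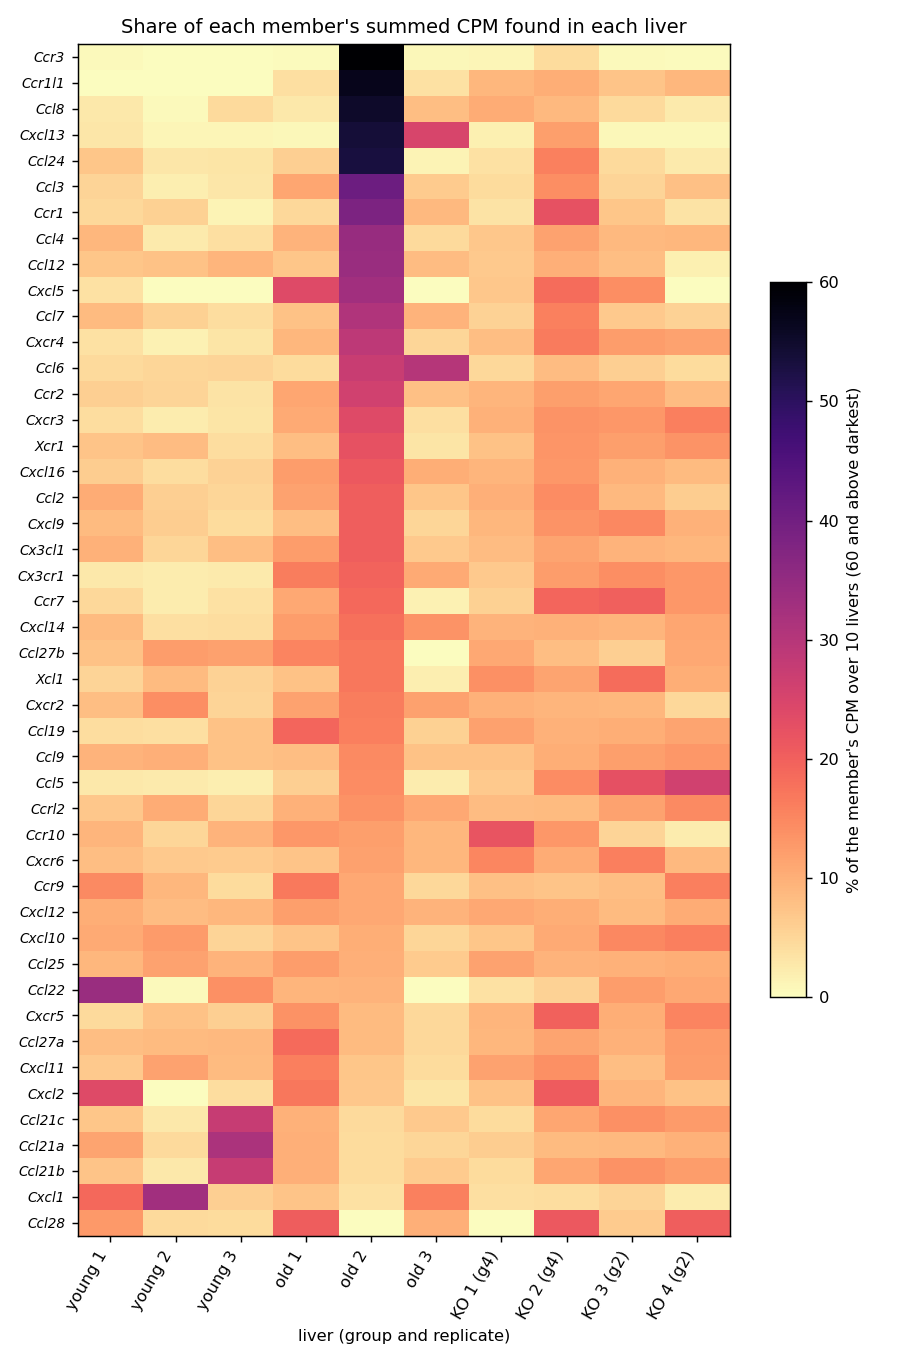
Heat map of the share (%) of each member's summed CPM that falls in each of the 10 livers, with 1 row for each of 46 members ordered by the share in old control replicate 2. The 5 darkest cells of that column belong to Ccr3, Ccr1l1, Ccl8, Cxcl13 and Ccl24, each with at least 50% of its summed CPM in this liver.

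Markers of several leukocyte types were also highest in old control replicate 2. The 10 Kupffer cell markers (resident macrophages, such as Clec4f and Vsig4) summed to 1612 CPM there, 505 and 967 CPM in the other old controls, 265 to 369 CPM in the young livers and 472 to 827 CPM in the livers labelled knockout. The 12 neutrophil markers, most of them granule genes, summed to 331 CPM there, 28.1 and 39.8 CPM in the other old controls and at most 39.2 CPM in the 7 young and knockout livers. Camp and Ltf of this list were at 0 in all 3 young livers and at 14.2 and 28.3 CPM in old control replicate 2. The 12 T cell markers in the table summed to 59.5 CPM there, 15.2 and 9.35 CPM in the other old controls, 7.10 to 7.41 CPM in the young livers and 16.6 to 36.4 CPM in the livers labelled knockout. Other lists did not follow this order in their sums. The 14 markers of monocyte-derived macrophages summed to 2347 CPM in old control replicate 3, 1572 CPM in replicate 2 and 816 CPM in replicate 1, against 1330.0 to 1578 CPM in the young livers. By gene, 13 of these 14 had positive log2 fold changes with age in controls (median 1.995). At an adjusted p under 0.05 (edgeR), 7 were higher and 0 lower, where 14.1% of all genes were higher. Summed plasma cell markers were highest in young replicate 2 (1052 CPM, against 483 CPM in old control replicate 2). Of 6 tested plasma cell markers, 2 were called higher and 1 lower with age, with a median log2 fold change of 0.60. B cell markers were at 21.9 CPM in old control replicate 1, 19.2 CPM in replicate 2, 6.58 CPM in replicate 3 and up to 29.0 CPM in a knockout liver. The part of these cell types in the chemokine values was not tested, and in bulk tissue fewer cells of a type and less RNA per cell cannot be told apart.

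**Figure D2:**
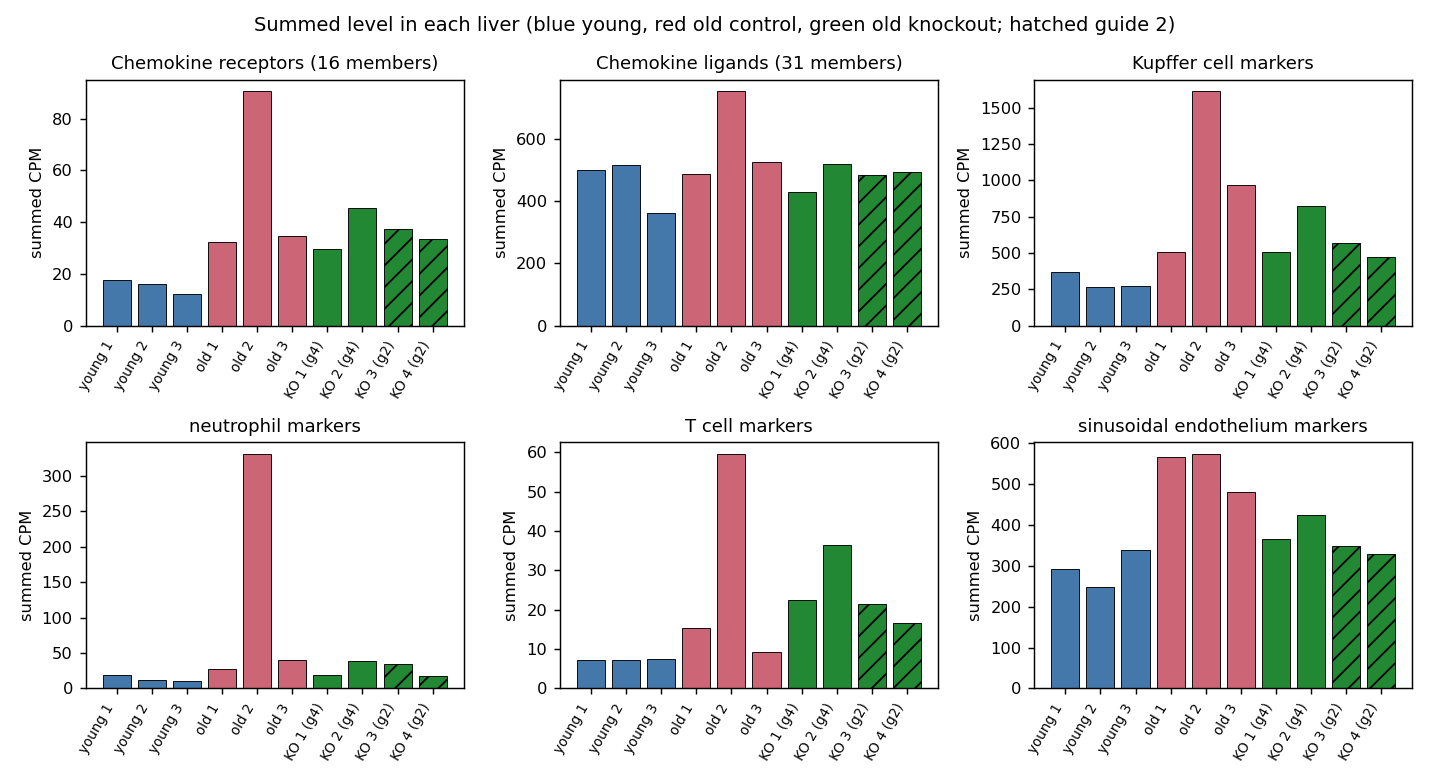
Bars give the summed CPM, in each of the 10 livers, of the 16 receptors, the 31 ligands and 4 lists of cell type markers. Old control replicate 2 is the tallest bar for receptors (90.5 CPM), ligands (753 CPM), Kupffer cell, neutrophil and T cell markers, while the old controls stand closer together for sinusoidal endothelium markers (479.7 to 573 CPM).

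The first question was which of these genes change with age in control livers. Of the 39 tested members, 10 were higher in old controls and 0 were lower at an adjusted p under 0.05 (edgeR quasi-likelihood test, adjusted by Benjamini-Hochberg over all genes). They include the ligands Cxcl16, Cxcl14, Ccl6, Ccl19 and Ccl3 and the receptors Cx3cr1, Ccr2, Cxcr4 and Cxcr3. Of all genes tested, 22.8% were called in either direction, 14.1% higher and 8.66% lower, so the members' share of 25.6% stands near the share over both directions and above that of genes called higher. By sign, 31 of the 39 members were higher, against 52.4% of all genes, with a median log2 fold change of 0.80 for members and 0.035 for all genes. In 7 tested members every old control was above every young liver, while 19.7% of all genes showed the same.

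These calls depended on single livers. Without old control replicate 2, the count was 4 members (Cx3cr1, Cxcl16 and Cxcl14 among them), without old control replicate 1 it was 12, and without old control replicate 3 it was 20, of which 1, Cxcl1, was lower. Without young replicate 1, 2 or 3 it was 6, 1 and 5, and Cx3cr1 was the member that remained without young replicate 2. With all livers, DESeq2 called 13 members, adding Ccl5, Ccl8 and Cxcl13. Without young replicate 2 the adjusted p was 0.0517 for Cxcl16 and 0.0612 for Cxcl14. Ccl3, Ccl6 and Cxcr3 lost their call without any 1 of the 3 young livers, Ccl19 without young replicate 1 or old control replicate 1, and Ccr2 and Cxcr4 without young replicate 3. The count over all genes moved too: 396 were called without young replicate 2 and 5327 without old control replicate 3, against 3172 with all livers. Cx3cr1 kept its call in all 12 alternative analyses, with adjusted p between 2.13e-08 and 0.0392. Without old control replicate 2, the log2 fold changes of the 6 members that lost their call were 1.79 for Ccl6, 1.36 for Cxcr4, 1.35 for Ccl3, 1.26 for Ccl19, 1.19 for Cxcr3 and 0.98 for Ccr2, all still positive.

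**Figure D3:**
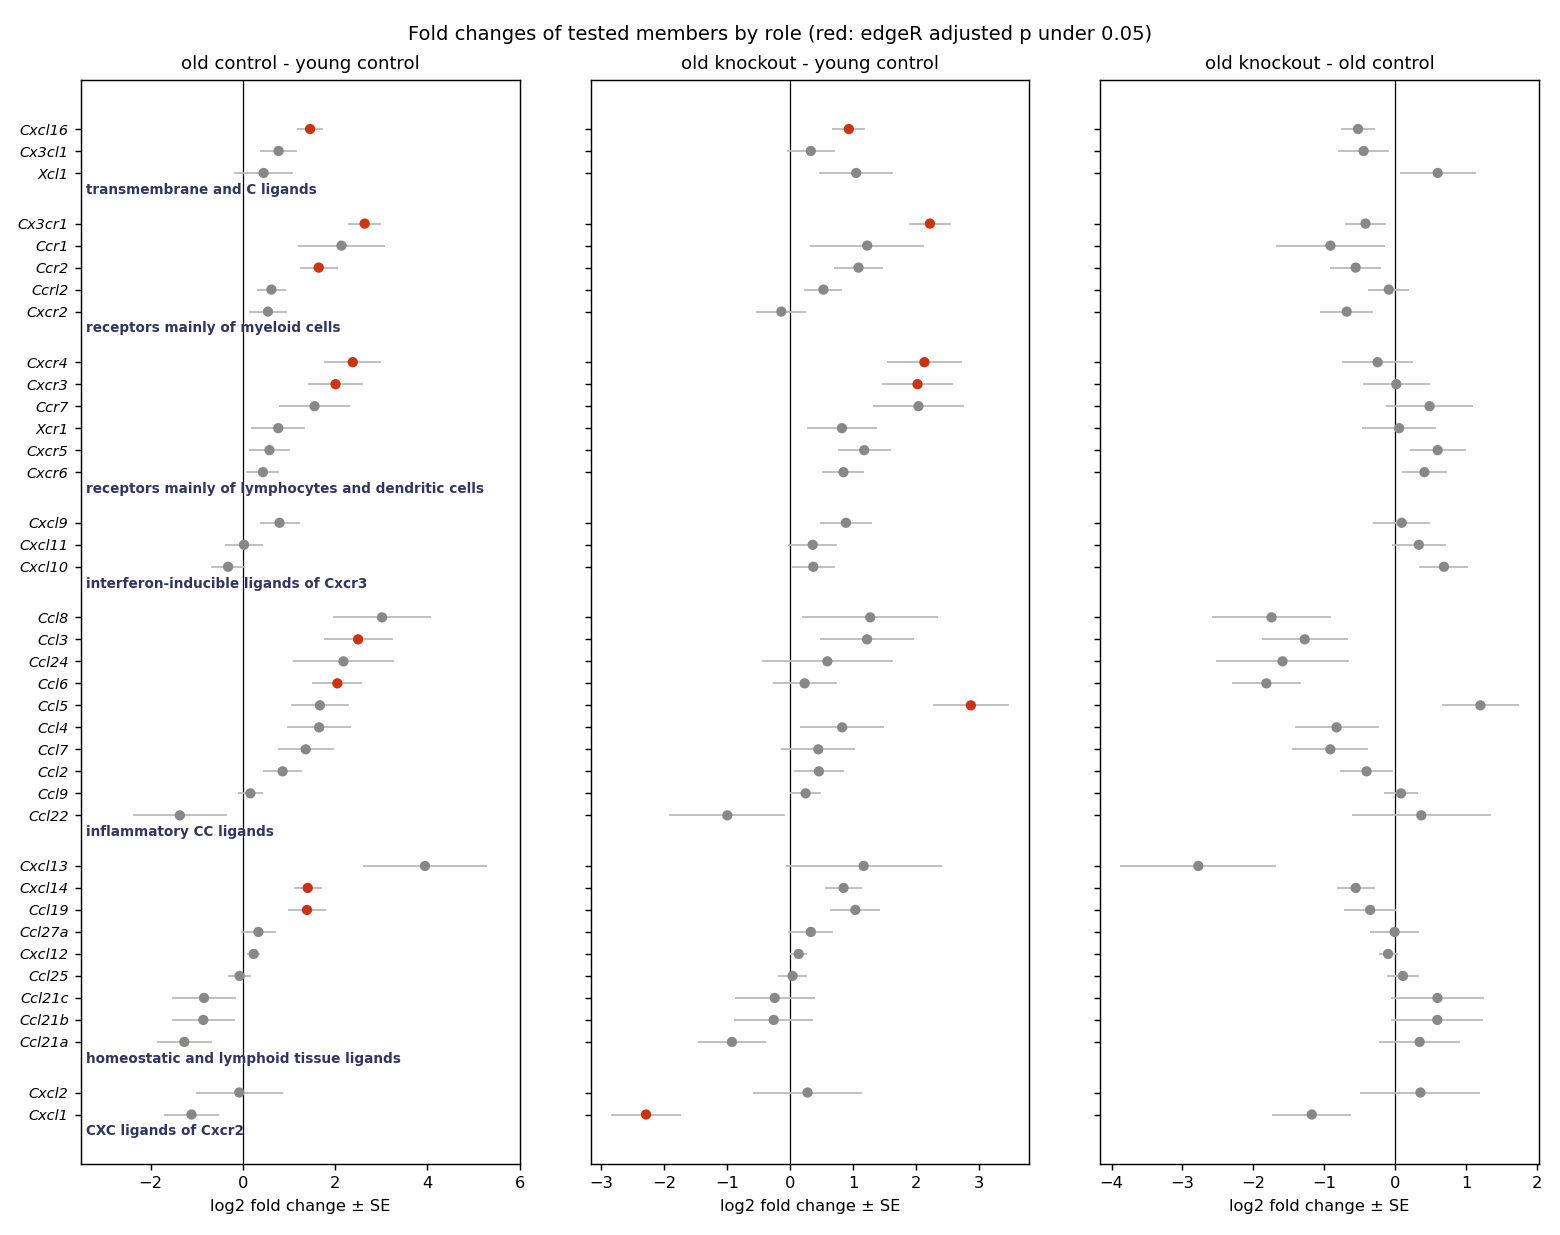
Points give the log2 fold change and bars its standard error for 38 tested members, grouped by role, in the comparisons old control against young, old knockout against young and old knockout against old control (red: adjusted p under 0.05). The left panel holds 9 red points, all to the right of 0, the middle panel holds 6, and the right panel holds 0.

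Among receptors found mainly on myeloid cells, 3 of the 6 tested members rose with age and the median log2 fold change was 1.66. Cx3cr1, the fractalkine receptor of monocytes and some macrophages, lies on chromosome 9 (119901616 to 120069879, minus strand, GRCm38). It was at 0.918, 0.726 and 0.824 CPM in the young livers and 5.41, 6.56 and 3.53 CPM in the old controls. The guide 4 livers had 2.21 and 4.14 CPM and the guide 2 livers 4.76 and 4.32 CPM. All 7 old livers stood above all 3 young ones, and the age difference was 2.64 ± 0.35 (SE), adjusted p = 0.00667. Here and for the other members, such differences are log2 fold changes from edgeR with p adjusted over all genes. The old knockout livers were higher than young as well, by 2.22 ± 0.34 (SE), adjusted p = 0.00938.

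Ccr2, the receptor through which inflammatory monocytes leave the bone marrow, was at 3.06, 2.704 and 1.71 CPM in the young livers, 5.75, 13.5 and 4.10 CPM in the old controls, 4.76 and 6.24 CPM in the guide 4 livers and 5.84 and 4.32 CPM in the guide 2 livers. It rose with age by 1.64 ± 0.41 (SE), adjusted p = 0.0198, while the knockout livers, also all above young, gave 1.09 ± 0.39 (SE), adjusted p = 0.0860.

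Ccr1, which binds Ccl3, Ccl6 and Ccl9 on neutrophils and monocytes, was at 0.673, 0.792 and 0.190 CPM in the young livers, 0.688, 5.38 and 1.24 CPM in the old controls, 0.465 and 3.14 CPM in the guide 4 livers and 0.989 and 0.467 CPM in the guide 2 livers. The value of old control replicate 2 was far above the others, and the age difference of 2.14 did not pass the test (adjusted p = 0.116). Cxcr2, the neutrophil receptor of Cxcl1 and Cxcl2, was at 0.673, 1.19 and 0.443 CPM in the young livers, 0.983, 1.37 and 1.002 CPM in the old controls, 0.814 and 0.785 CPM in the guide 4 livers and 0.754 and 0.408 CPM in the guide 2 livers. Every knockout liver lay below every old control for Cxcr2, 1 of 2 tested members with that pattern, which 3.26% of all genes shared. The receptor Ccrl2 ranged from 1.39 to 4.03 CPM over the 10 livers and gave 0.62 (adjusted p = 0.177) for age.

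Ccr3, the eotaxin receptor best known from eosinophils (chromosome 9, 124021972 to 124031689), did not pass the filter, since most of its counts came from 1 liver. It was at 0.122, 0 and 0 CPM in the young livers, 0.0983, 23.6 and 0.191 CPM in the old controls, 0.291 and 1.13 CPM in the guide 4 livers and 0.141 and 0.117 CPM in the guide 2 livers. The old controls held 524 counts against 2 in the young livers, and nearly all came from old control replicate 2. Its ligand Ccl24, made by macrophages, was at 2.33, 0.989 and 1.01 CPM in the young livers, 1.97, 17.3 and 0.429 CPM in the old controls, 1.16 and 5.15 CPM in the guide 4 livers and 1.46 and 0.817 CPM in the guide 2 livers and was likewise highest in that liver. The age difference of Ccl24 was 2.18 (adjusted p = 0.163) and -0.28 without old control replicate 2. Of 8 eosinophil genes, a list chosen after these values were seen, Ear2 was at 14.95 CPM and Siglecf, Epx, Prg2, Prg3, Ear1, Ear6 and Il5ra were each at most 0.775 CPM in old control replicate 2. Ccr1l1, a little-studied neighbour of Ccr1, had 0 counts in each young liver, 1, 16 and 1 counts in old control replicates 1, 2 and 3, and 2 or 3 counts in each knockout liver.

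Among receptors found mainly on lymphocytes and dendritic cells, Cxcr4 and Cxcr3 rose with age and all 6 tested members had positive log2 fold changes. Cxcr4, the receptor of Cxcl12 that holds cells in marrow and tissue niches, was at 1.22, 0.462 and 1.01 CPM in the young livers, 2.998, 9.53 and 1.67 CPM in the old controls, 2.61 and 5.45 CPM in the guide 4 livers and 4.05 and 3.79 CPM in the guide 2 livers. All old livers exceeded all young ones, though old control replicate 3 came close, and the age difference was 2.38 ± 0.62 (SE), adjusted p = 0.0223. Against young, the knockout livers gave 2.13 ± 0.59 (SE), adjusted p = 0.0431. Cxcr3, carried by effector T cells and NK cells, was at 0.490, 0.264 and 0.380 CPM in the young livers, 1.28, 2.87 and 0.477 CPM in the old controls, 1.16 and 1.61 CPM in the guide 4 livers and 1.55 and 1.93 CPM in the guide 2 livers. Old control replicate 3 overlapped the young livers, whereas all 4 knockout livers were above them. Its log2 fold change was 2.01 ± 0.59 (SE), adjusted p = 0.0343 for age and 2.02 ± 0.57 (SE), adjusted p = 0.0445 for knockout against young.

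Xcr1, a marker of cross-presenting dendritic cells, was at 1.10, 1.25 and 0.634 CPM in the young livers, 1.23, 3.37 and 0.477 CPM in the old controls, 1.16 and 2.01 CPM in the guide 4 livers and 1.84 and 2.04 CPM in the guide 2 livers, with overlap between all groups. Cxcr5, the follicular receptor of B cells, was at 0.612, 1.06 and 0.824 CPM in the young livers, 1.87, 1.19 and 0.668 CPM in the old controls, 1.28 and 2.705 CPM in the guide 4 livers and 1.41 and 2.10 CPM in the guide 2 livers, and its age difference was 0.58 (adjusted p = 0.366). For Ccr7, which takes dendritic cells and naive T cells to lymphatics, the values were 0.428, 0.198 and 0.317 CPM in the young livers, 0.983, 1.69 and 0.143 CPM in the old controls, 0.523 and 1.75 CPM in the guide 4 livers and 1.79 and 1.17 CPM in the guide 2 livers. The highest values stood in old control replicate 2, knockout replicate 2 and knockout replicate 3, and neither the age difference of 1.55 (adjusted p = 0.160) nor that of knockout against young, 2.04 (adjusted p = 0.0831), passed the test. Cxcr6, the Cxcl16 receptor of liver-resident T and NKT cells, was at 0.796, 0.660 and 0.634 CPM in the young livers, 0.737, 1.19 and 0.906 CPM in the old controls, 1.51 and 1.05 CPM in the guide 4 livers and 1.60 and 0.875 CPM in the guide 2 livers, a narrow range with 0.44 for age (adjusted p = 0.391). Ccr9 and Ccr10 stayed at or below 0.581 CPM in every liver and were not tested.

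Cxcl16 was 1 of 3 tested transmembrane and C ligands, and the only one of them called. Made as a membrane protein by macrophages and endothelium, it was at 10.2, 6.73 and 8.81 CPM in the young livers, 20, 34.3 and 16.4 CPM in the old controls, 15.0 and 20.9 CPM in the guide 4 livers and 15.7 and 13.9 CPM in the guide 2 livers. All old livers were above all young ones, and the ligand gave 1.46 ± 0.28 (SE), adjusted p = 0.00936 for age and 0.93 ± 0.26 (SE), adjusted p = 0.0435 for knockout against young. Cx3cl1 (fractalkine), the membrane-bound ligand of Cx3cr1, was at 1.90, 0.989 and 1.58 CPM in the young livers, 2.41, 3.97 and 1.29 CPM in the old controls, 1.63 and 2.23 CPM in the guide 4 livers and 1.88 and 1.75 CPM in the guide 2 livers, with overlap and an age difference of 0.77 (adjusted p = 0.172). Xcl1, made by activated T and NK cells, was at 0.245, 0.396 and 0.253 CPM in the young livers, 0.344, 0.775 and 0.0954 CPM in the old controls, 0.639 and 0.524 CPM in the guide 4 livers and 0.848 and 0.467 CPM in the guide 2 livers.

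**Figure D4:**
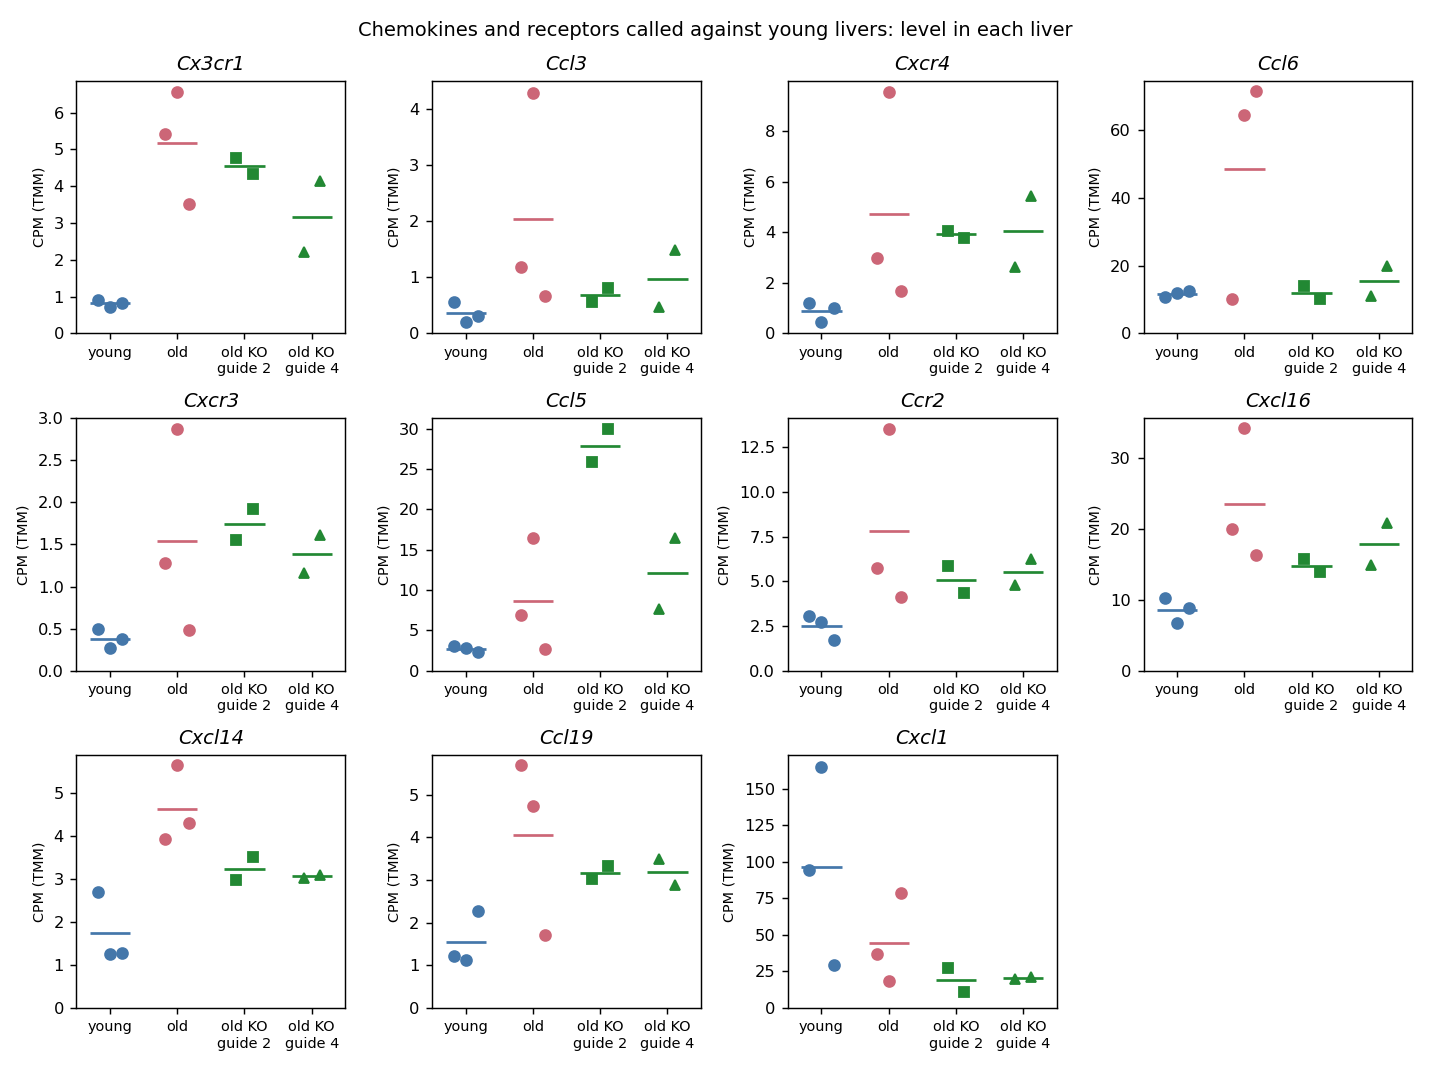
Dots give the CPM of each liver, and lines the mean, for 11 members called in old controls or old knockout livers against young livers. For Cx3cr1 the 7 old livers sit between 2.21 and 6.56 CPM, all above the young livers, and for Ccl5 the guide 2 livers are highest.

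The inflammatory CC ligands had a median log2 fold change of 1.66 over 10 tested members in the age comparison, and 2 of them, Ccl6 and Ccl3, rose. Ccl6, a ligand of Ccr1 made by macrophages and granulocytes (chromosome 11, 83587882 to 83593087, minus strand), was at 10.8, 12.01 and 12.5 CPM in the young livers, 10.0, 64.5 and 71.5 CPM in the old controls, 11.1 and 19.8 CPM in the guide 4 livers and 14.0 and 10.2 CPM in the guide 2 livers. Old control replicates 2 and 3 were high, while old control replicate 1 lay below all young livers and the knockout livers ran from 10.2 to 19.8 CPM. The age difference was 2.05 ± 0.54 (SE), adjusted p = 0.0246. With old control replicates 2 and 3 both left out, a setting chosen after seeing these values, it was -0.24 (adjusted p = 0.601).

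Ccl9, the neighbouring gene (chromosome 11, 83572919 to 83578636, minus strand) and also a Ccr1 ligand, did not share this pattern. It was at 72.9, 76.4 and 58.3 CPM in the young livers, 62.0, 112 and 58.0 CPM in the old controls, 58.6 and 77.9 CPM in the guide 4 livers and 91.9 and 99.8 CPM in the guide 2 livers. Old controls overlapped young livers, and the age difference was 0.16 (adjusted p = 0.676). Both guide 2 livers were above both guide 4 livers and all young livers. The 250 bases before the start of each gene are given for comparison, on GRCm38.p6 from RefSeq, 5′ to 3′ on the gene's strand: chr11:83593088-83593337 (minus strand) for Ccl6 and chr11:83578637-83578886 (minus strand) for Ccl9.
Ccl6: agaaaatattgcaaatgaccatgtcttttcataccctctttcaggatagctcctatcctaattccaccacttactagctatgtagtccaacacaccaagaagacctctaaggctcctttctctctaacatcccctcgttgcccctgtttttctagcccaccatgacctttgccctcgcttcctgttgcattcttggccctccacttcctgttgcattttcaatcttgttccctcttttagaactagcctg
Ccl9: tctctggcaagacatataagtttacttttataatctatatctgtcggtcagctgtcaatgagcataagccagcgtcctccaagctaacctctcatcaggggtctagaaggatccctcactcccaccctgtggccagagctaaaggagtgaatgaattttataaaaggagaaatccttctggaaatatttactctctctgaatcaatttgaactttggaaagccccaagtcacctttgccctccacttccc
Neither window holds any of 4 motifs searched on both strands (TTCNNNGAA for STAT factors, GGANNTTCC for NF-kappaB, GAAANNGAA for IRF factors and GAGGAA for PU.1), which says only that these letters are not in these windows. The motif letters can overlap one another, as those of PU.1 and the IRF factors do. Promoters were matched for 34 of the 47 members.

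Ccl3, a ligand of Ccr1 from activated macrophages and T cells, was at 0.551, 0.198 and 0.317 CPM in the young livers, 1.18, 4.28 and 0.668 CPM in the old controls, 0.465 and 1.48 CPM in the guide 4 livers and 0.565 and 0.817 CPM in the guide 2 livers. Old controls did not overlap young livers, the lowest old value being 0.668 CPM, and Ccl3 gave 2.498 ± 0.75 (SE), adjusted p = 0.0359. Its close relative Ccl4 was highest in the same liver, at 4.65 CPM against at most 1.57 CPM elsewhere, with 1.65 (adjusted p = 0.102). Ccl5, secreted by T cells, NK cells and platelets (chromosome 11, 83525778 to 83530518), was at 3.06, 2.77 and 2.34 CPM in the young livers, 6.93, 16.4 and 2.67 CPM in the old controls, 7.67 and 16.5 CPM in the guide 4 livers and 25.9 and 29.9 CPM in the guide 2 livers. In old controls the values spread from the young level to 16.4 CPM, and the age difference of 1.67 did not pass (adjusted p = 0.0736), while every knockout liver was above every young liver. The difference of knockout against young was 2.87 ± 0.61 (SE), adjusted p = 0.0222.

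The monocyte attractants of the Ccl2 cluster on chromosome 11 (Ccl2, Ccl7, Ccl12 and Ccl8 between 82035571 and 82116799) gave 0 calls with age in the edgeR test. Ccl2, the main ligand of Ccr2, was at 5.02, 2.90 and 2.41 CPM in the young livers, 5.55, 9.75 and 3.48 CPM in the old controls, 4.82 and 6.89 CPM in the guide 4 livers and 4.19 and 2.98 CPM in the guide 2 livers, with an age difference of 0.86 (adjusted p = 0.154). Ccl8 had 5.24 CPM in old control replicate 2 and at most 0.988 CPM in the other 9 livers, and its difference of 3.02 did not pass (adjusted p = 0.0600). Ccl8 was called by DESeq2 (adjusted p = 0.0140) and by edgeR without old control replicate 1 or 3 (adjusted p = 0.0214 and 0.0283), and Ccl2 by edgeR without old control replicate 3. Ccl7 also peaked there, at 4.19 CPM, with 1.36 (adjusted p = 0.124), and Ccl12, under the filter, had 1.19 CPM there and at most 0.349 CPM elsewhere. Ccl22, a dendritic cell product, varied from 0 to 3.24 CPM, the highest value being in young replicate 1. In the second cluster of this chromosome (Ccl5, Ccl9, Ccl6, Ccl3 and Ccl4 between 83525778 and 83664683), 2 of 5 members rose with age.

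Of the homeostatic and lymphoid tissue ligands, 2 of 9 tested members, Cxcl14 and Ccl19, rose with age. Cxcl14, an epithelial and stromal chemokine (chromosome 13, 56288643 to 56296551, minus strand), was at 2.69, 1.25 and 1.27 CPM in the young livers, 3.93, 5.65 and 4.29 CPM in the old controls, 3.02 and 3.10 CPM in the guide 4 livers and 2.97 and 3.501 CPM in the guide 2 livers. Young replicate 1 was the highest young liver, yet all 3 old controls were above it, and the knockout livers lay between the groups without touching either. The age difference was 1.41 ± 0.30 (SE), adjusted p = 0.0126, and knockout against young gave 0.85 ± 0.29 (SE), adjusted p = 0.0752. Its promoter holds 1 match to the STAT letters and 1 to the IRF letters, shown in capitals in the 250 bases before the start (chr13:56296552-56296801, minus strand, GRCm38.p6, RefSeq).
Cxcl14: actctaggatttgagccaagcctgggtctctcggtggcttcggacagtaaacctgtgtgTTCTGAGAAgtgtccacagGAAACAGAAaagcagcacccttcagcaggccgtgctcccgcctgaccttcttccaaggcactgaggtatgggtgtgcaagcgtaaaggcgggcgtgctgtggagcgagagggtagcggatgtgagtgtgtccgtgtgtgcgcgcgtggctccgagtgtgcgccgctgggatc
The first match begins 191 bases before the start and the second 172 bases before it. The STAT letters occur in 7.18% of all 27025 promoter windows of this length and in 2 of the 34 matched members. IRF letters occur in 7.16% of all windows and in 6 members, namely Ccl19, Ccl3, Ccr2, Cxcl10, Cxcl14 and Cxcl9. PU.1 letters were found in 23.1% of all windows and in 10 members. These matches are descriptions of sequence and were not tested for binding.

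Ccl19, a ligand of Ccr7 that draws dendritic cells and T cells to lymphoid tissue, was at 1.22, 1.12 and 2.28 CPM in the young livers, 5.70, 4.74 and 1.72 CPM in the old controls, 3.49 and 2.88 CPM in the guide 4 livers and 3.01 and 3.33 CPM in the guide 2 livers. Old control replicate 3 fell within the young range, and the age difference was 1.39 ± 0.42 (SE), adjusted p = 0.0362. Cxcl12, the ligand of Cxcr4, had the highest count of this role and was at 206, 171 and 182 CPM in the young livers, 245, 221 and 193 CPM in the old controls, 224 and 209.8 CPM in the guide 4 livers and 175 and 211 CPM in the guide 2 livers, varying little, with 0.24 for age (adjusted p = 0.251). The Ccl21 genes, further Ccr7 ligands, were highest in young replicate 3, and Ccl21a was at 1.16, 0.462 and 3.23 CPM in the young livers, 1.03, 0.456 and 0.525 CPM in the old controls, 0.639 and 0.873 CPM in the guide 4 livers and 0.895 and 0.992 CPM in the guide 2 livers. Ccl21b and Ccl21c had near-identical values, such as 3.23 and 3.36 CPM in that liver. Because these copies can share reads, they are uncertain.

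Cxcl13, the B cell attractant of follicles (chromosome 5, 95956951 to 95961068), spread more than any other tested member of its role. It was at 5.45, 2.11 and 2.15 CPM in the young livers, 1.72, 102 and 47.3 CPM in the old controls, 3.20 and 22.8 CPM in the guide 4 livers and 1.37 and 1.34 CPM in the guide 2 livers. Old control replicates 2 and 3 stood far above the young livers, old control replicate 1 below all of them, and knockout replicate 2 between these levels. The age difference of 3.95 ± 1.33 (SE) on the log2 scale did not pass (adjusted p = 0.0538) and was -0.92 with old control replicates 2 and 3 both left out. DESeq2 called Cxcl13 (adjusted p = 0.0192), and so did edgeR without old control replicate 1 (adjusted p = 0.0175). The epithelial ligand Ccl27a was at 5.75, 6.07 and 6.15 CPM in the young livers, 13.2, 6.06 and 3.43 CPM in the old controls, 6.33 and 8.03 CPM in the guide 4 livers and 6.92 and 8.81 CPM in the guide 2 livers, with old control replicate 1 highest and old control replicate 3 lowest. Ccl25, a ligand of Ccr9, ranged from 2.48 to 4.62 CPM, with overlapping groups. Ccl27b and Ccl28 were at most 0.305 CPM and were not tested.

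Of the CXC ligands of Cxcr2, which attract neutrophils, the 2 tested members had negative log2 fold changes with age (median -0.60), and 0 were called. For Cxcl2 the value was only -0.079 (edgeR adjusted p = 0.958), and Cxcl5 was not tested. Cxcl1 (chromosome 5, 90891241 to 90893115, plus strand) was at 94.2, 165 and 29.5 CPM in the young livers, 36.5, 18.2 and 78.8 CPM in the old controls, 19.5 and 21.1 CPM in the guide 4 livers and 27.0 and 11.03 CPM in the guide 2 livers. The young livers differed widely among themselves, and old controls overlapped them with a difference of -1.11 (adjusted p = 0.192). All 4 knockout livers were below all young livers, and Cxcl1 fell against young by 2.29 on the log2 scale (adjusted p = 0.0314). Cxcl2 was at 1.10, 0 and 0.190 CPM in the young livers, 0.786, 0.319 and 0.143 CPM in the old controls, 0.349 and 0.960 CPM in the guide 4 livers and 0.424 and 0.350 CPM in the guide 2 livers, without separation of groups. Cxcl5 was at 0.0612, 0 and 0 CPM in the young livers, 0.393, 0.547 and 0 CPM in the old controls, 0.116 and 0.305 CPM in the guide 4 livers and 0.235 and 0 CPM in the guide 2 livers, with 20 counts in old controls and 1 in young livers, a ratio of 14.95 with a 95% interval from 2.39 to 619.7 that covers counting error only.

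The 250 bases before the start of Cxcl1 are shown for the NF-kappaB letters, in capitals, at chr5:90890995-90891244 (plus strand, GRCm38.p6, RefSeq).
Cxcl1: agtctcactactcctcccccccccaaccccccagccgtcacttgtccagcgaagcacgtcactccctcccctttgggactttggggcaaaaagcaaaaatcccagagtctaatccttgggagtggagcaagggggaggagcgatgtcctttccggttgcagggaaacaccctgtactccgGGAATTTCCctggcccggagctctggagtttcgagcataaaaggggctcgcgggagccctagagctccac
The match begins 70 bases before the start, and the Cxcl2 window holds the same letters, GGAATTTCC, beginning 96 bases before its start. The NF-kappaB letters occur in 3.56% of all windows and in 6 of the 34 matched members, which are Ccl12, Ccr3, Ccrl2, Cxcl1, Cxcl10 and Cxcl2. Of these 6 members, 4 were tested and 0 rose with age, where 14.1% of all genes tested rose. So few members cannot be set apart from that share.

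The interferon-inducible ligands of Cxcr3 gave 0 calls in 3 tested members with age, and a median log2 fold change of 0.025. Cxcl9 was at 34.9, 25.2 and 17.9 CPM in the young livers, 32.6, 82.1 and 20.6 CPM in the old controls, 36.8 and 55.0 CPM in the guide 4 livers and 60.8 and 39.7 CPM in the guide 2 livers, with the highest value in old control replicate 2 and an age difference of 0.79 (adjusted p = 0.200). Cxcl10 was at 24.0, 28.2 and 11.8 CPM in the young livers, 16.6, 23.1 and 11.6 CPM in the old controls, 15.9 and 24.3 CPM in the guide 4 livers and 33.8 and 36.2 CPM in the guide 2 livers. The guide 2 livers were the highest of the 10 for Cxcl10, while the age difference was -0.32 (adjusted p = 0.549). Cxcl11 was at 3.98, 6.99 and 5.20 CPM in the young livers, 9.63, 4.24 and 2.58 CPM in the old controls, 6.97 and 8.38 CPM in the guide 4 livers and 4.85 and 7.41 CPM in the guide 2 livers, and its groups overlapped.

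Per kilobase of exon, Cxcl1 had the highest mean level of the members with a gene model in young livers, 51.4 CPM per kb, followed by Cxcl12 with 22.8 and Ccl9 with 22.7. In old controls the order was led by Cxcl13 with 43.6 CPM per kb, then Ccl6 with 27.1 and Cxcl12 with 26.9. The values of Cxcl13 and Ccl6 rested on old control replicates 2 and 3. In the knockout livers the highest were Ccl9 with 26.9, Cxcl12 with 25.1 and Ccl5 with 20.8 CPM per kb. Among receptors in old controls, Cxcr4 was highest with 2.62 CPM per kb, followed by Ccr3 with 2.44, most of which came from old control replicate 2. Cxcr4 was highest in that liver too, at 9.53 CPM against 2.998 and 1.67 CPM in old control replicates 1 and 3.

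Ligands and receptors were set side by side for known pairs in which both partners averaged at least 10 counts. In Cxcl16 and Cxcr6, Cx3cl1 and Cx3cr1 and Cxcl12 and Cxcr4, 1 partner was called with age and the other was not: the receptors Cx3cr1 and Cxcr4 and the ligand Cxcl16. Ccl6 rose while its receptor Ccr1 did not pass the test. Cxcr3 was called, and its ligands Cxcl9 and Cxcl10 were not. Ccl19 was called and Ccr7 was not, and Ccr2 was called while Ccl2 was not. Neither partner was called in Cxcl13 with Cxcr5, Cxcl1 with Cxcr2, Ccl9 with Ccr1 and Ccl21a with Ccr7, and Ccl24 and Ccr3 are described above. A call in 1 partner alone was not tested as a difference between the partners.

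Chemokines outside the symbol pattern were Pf4 and Ppbp, both stored in platelets, and both rose with age in the edgeR test. Pf4 was at 0.306, 0.462 and 0.760 CPM in the young livers, 2.16, 50.6 and 1.05 CPM in the old controls, 1.51 and 7.90 CPM in the guide 4 livers and 1.84 and 1.87 CPM in the guide 2 livers. Ppbp was at 0.673, 0.989 and 1.20 CPM in the young livers, 2.11, 27.5 and 2.15 CPM in the old controls, 1.34 and 2.57 CPM in the guide 4 livers and 1.98 and 1.46 CPM in the guide 2 livers. Both were highest in old control replicate 2, where the 9 megakaryocyte and platelet markers, which include these genes, summed to 101 CPM against 4.28 to 18.3 CPM elsewhere. The log2 fold changes were 5.13 for Pf4 (adjusted p = 0.0302) and 3.47 for Ppbp (adjusted p = 0.0250), and 1.64 and 1.15 without that liver (adjusted p = 0.211 and 0.0786). Both also lost their call without any 1 of the 3 young livers, with only the compared groups in the fit, and with limma voom (adjusted p = 0.247 and 0.161). DESeq2 gave no adjusted p for either.

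Among 8 related genes, 7 receptors that are atypical or sense other attractants and Rarres2, the secreted ligand of Cmklr1, 4 receptors rose with age and 0 fell, with a median log2 fold change of 0.71. They were Ackr1, Ackr2, Gpr182 and Cmklr1. Of all genes, 14.1% rose and 8.66% fell. Ackr1, a chemokine-binding protein of venules and red cells, was at 0.673, 0.858 and 0.380 CPM in the young livers, 1.48, 2.01 and 1.53 CPM in the old controls, 1.45 and 1.44 CPM in the guide 4 livers and 0.848 and 1.05 CPM in the guide 2 livers. Its groups did not overlap between old controls and young livers, and the difference was 1.38 ± 0.37 (SE), adjusted p = 0.0247. Gpr182, a scavenging receptor of sinusoidal endothelium, was at 15.1, 14.8 and 19.9 CPM in the young livers, 22.4, 26.3 and 28.5 CPM in the old controls, 20.7 and 18.2 CPM in the guide 4 livers and 14.5 and 12.02 CPM in the guide 2 livers, and gave 0.63 ± 0.20 (SE), adjusted p = 0.0450. It also stands among the 12 sinusoidal endothelium markers, of which 10 rose with age. Ackr1, Gpr182 and Cmklr1 lost their calls without any 1 of the 3 young livers and without old control replicate 2, Gpr182 also without old control replicate 3. Ackr2 passed narrowly (edgeR adjusted p = 0.0492), and its call was not followed through the alternative analyses.

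Of 32 genes of chemokine receptor signalling (G protein subunits, receptor kinases, arrestins and the Rac and Rap machinery of migration), 16 rose and 1, Gnai3, fell with age, where 14.1% of all genes rose and 8.66% fell, with a median log2 fold change of 0.82. The list summed to 1489 CPM in old control replicate 2 and to 1015 to 1204 CPM in the other livers, and the Kupffer cell, neutrophil and T cell markers given above were highest in the same liver. Their part in these values was not tested. Rac2, the GTPase of blood cells, was at 10.7, 5.61 and 5.96 CPM in the young livers, 13.03, 47.1 and 21.5 CPM in the old controls, 16.3 and 32.1 CPM in the guide 4 livers and 18.8 and 15.9 CPM in the guide 2 livers and gave 1.87 ± 0.46 (SE), adjusted p = 0.0184. Grk3, a kinase that desensitises receptors, was at 2.57, 1.39 and 1.20 CPM in the young livers, 15.8, 23.5 and 3.20 CPM in the old controls, 4.88 and 14.5 CPM in the guide 4 livers and 8.15 and 11.3 CPM in the guide 2 livers, with 3.03 ± 0.66 (SE), adjusted p = 0.0129. Rgs2, which shortens G protein signals, was at 5.08, 4.16 and 4.05 CPM in the young livers, 10.4, 16.1 and 10.2 CPM in the old controls, 9.12 and 14.5 CPM in the guide 4 livers and 11.5 and 11.8 CPM in the guide 2 livers, with 1.46 ± 0.23 (SE), adjusted p = 0.00767. Rgs2 kept its call in its 12 alternative analyses, Grk3 lost it with limma voom and without young replicate 2, and Rac2 lost it without young replicate 2, young replicate 3 or old control replicate 2. In this list the knockout livers gave 0 calls against old controls, where 0% of all genes were called. Against young, 7 of the list were higher and 1 lower, where 6.64% of all genes were higher and 4.97% lower. Among 11 tested genes of chemokine processing and presentation, such as the proteases Dpp4 and Mmp2 and the syndecans, 1 rose and 1 fell with age.

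The second question was whether old livers labelled Cd44 knockout differ from old controls. With edgeR, 0 of the 39 tested members passed, and 0% of all genes did. DESeq2 and limma voom also called 0 members. At an unadjusted p under 0.05 there were 3 members, Ccl6, Cxcl13 and Ccl5, that is 7.69% against 6.59% of all genes. Ccl6 gave a log2 difference of -1.82 ± 0.49 (SE), with an adjusted p of 0.744. Its means were 48.7 ± 33.6 CPM (SD, n = 3) in old controls and 13.8 ± 4.35 CPM (SD, n = 4) in knockout livers. Old control replicate 1 lay below all 4 knockout livers for Ccl6, and without that liver Ccl6 was called (adjusted p = 0.00827, log2 -2.30). With old control replicates 2 and 3 left out its sign turned, to 0.47.

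Cxcl13 gave -2.78 (adjusted p = 0.744), from 50.2 ± 49.96 CPM (SD, n = 3) in old controls to 7.18 ± 10.46 CPM (SD, n = 4) in knockout livers, and with old control replicates 2 and 3 left out 2.08. Of the 3, Ccl5 had the opposite sign, 1.20 (adjusted p = 0.748), with means of 8.67 ± 7.03 CPM (SD, n = 3) in old controls and, in knockout livers, 20 ± 9.96 CPM (SD, n = 4). By sign, 22 of 39 members were lower and 17 higher, with a median log2 difference of -0.10 against -0.024 for all genes. The inflammatory CC ligands had a median of -0.87 and the myeloid receptors one of -0.49. For the 10 members called with age, which share the old controls with this comparison, the values ran from -1.82 for Ccl6 to 0.016 for Cxcr3, with adjusted p of 0.744 or more. They were -0.42 for Cx3cr1, -0.52 for Cxcl16, -0.56 for Ccr2 and -0.56 for Cxcl14. By sign, markers were lower in knockout livers for 10 of 10 Kupffer cell, 13 of 14 monocyte-derived macrophage, 7 of 7 neutrophil, 12 of 12 sinusoidal endothelium, 11 of 11 stellate cell and 5 of 5 megakaryocyte and platelet genes, and higher for 10 of 12 T cell and 8 of 8 B cell genes. Of all genes, 45.56% were higher. Less even were dendritic cell (6 of 10 lower), plasma cell and cholangiocyte (4 of 6 lower each) and erythroid precursor markers (5 of 8 lower). Hepatocyte (8 of 12 lower) and NK cell (3 of 5 higher) markers were also mixed. None of these markers was called (edgeR, 0 in each list). Summed neutrophil markers were at 28.1, 331 and 39.8 CPM in old control replicates 1, 2 and 3 and 16.9 to 39.2 CPM in the knockout livers. Megakaryocyte and platelet markers were at 14.4, 101 and 10.1 CPM against 8.31 to 18.3 CPM. For both lists the sums differed mainly through old control replicate 2. In old control replicate 1, summed Kupffer cell and neutrophil markers, 505 and 28.1 CPM, lay within the range of the knockout livers. Its sums lay above that range for sinusoidal endothelium and stellate cell markers and below it for monocyte-derived macrophage markers.

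The third comparison set the old knockout livers against young controls, which the age comparison also uses. Higher in knockout livers were 6 members, among them Cx3cr1, Ccl5, Cxcr4, Cxcr3 and Cxcl16, or 15.4% against 6.64% of all genes. Lower was 1 member, Cxcl1, or 2.56% against 4.97% of all genes. In 15 tested members every knockout liver was above every young liver, a pattern of 21.1% of all genes. These included 5 of the 6 tested receptors of lymphocytes and dendritic cells, namely Cxcr4, Cxcr3, Cxcr5, Cxcr6 and Ccr7. T cell markers stood beside them, with 9 of 12 called higher in knockout livers than in young, and B cell markers with 7 of 8. Ccl6 gave 0.23 here (adjusted p = 0.775).

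This count, too, depended on single livers. It was 0 without young replicate 2, 2 without young replicate 1 and 2 without young replicate 3. Leaving out knockout replicates 1 to 4 in turn gave 6, 2, 1 and 1 members. Ccl5 lost its call without any 1 of the 3 young livers and without knockout replicate 3 or 4, as did Cxcr3, Cxcr4 and Cxcl16, these 3 also without knockout replicate 2. Cxcl16 lost it without knockout replicate 1 as well, and Cxcl1 lost it without young replicate 1 or 2 and knockout replicate 2, 3 or 4. Cx3cr1 lost its call in 1 of 12 alternative analyses, without young replicate 2 (adjusted p = 0.0609), where its log2 fold change was 2.14. Ccl5 kept a log2 fold change of at least 2.62 in its 12 alternatives, with adjusted p between 1.04e-05 and 0.100. With edgeR and all livers, Ccl5 and Cxcl1 passed here and not with age, though DESeq2 called Ccl5 with age (adjusted p = 0.0171) and edgeR called both with age without old control replicate 3 (adjusted p = 0.0131 and 0.0394). The direct test of knockout against old controls gave adjusted p of 0.748 and 0.748.

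Guides were compared last, with 2 livers each. Between guide 4 and guide 2, 0 of 39 members passed with edgeR (0.0216% of all genes did) and 0 had an unadjusted p under 0.05, against 4.34% of all genes. DESeq2 and limma voom called 0 members. Against old controls, guide 2 gave 0 calls with edgeR (0.0216% of all genes) and limma voom, and 1, Cxcl13, with DESeq2. At an unadjusted p under 0.05 there were 5 members, Ccl5, Cxcl10, Cxcl13, Ccl6 and Ccl8, that is 12.8% against 7.04% of all genes. Guide 4 gave 0 calls by all 3 tools (0% of all genes with edgeR) and 1 member, Ccl6, at an unadjusted p under 0.05, against 3.91% of all genes.

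For Ccl5 and Cxcl10 both guide 2 livers stood above the other 8 livers. Mean Ccl5 was 27.9 ± 2.85 CPM (SD, n = 2) with guide 2 and 12.1 ± 6.24 CPM (SD, n = 2) with guide 4. The log2 difference was 1.68 ± 0.55 (SE) for guide 2 against old controls (adjusted p = 0.562), 0.48 for guide 4 against old controls (adjusted p = 0.980) and -1.20 for guide 4 against guide 2 (adjusted p = 0.9996). Cxcl10 gave 1.03, 0.24 and -0.80 in the same comparisons, with adjusted p of 0.581, 0.980 and 0.9996. Cxcl13 was near 1.34 CPM in both guide 2 livers, below every other liver, and differed by -5.21 from old controls (adjusted p = 0.474) and by 3.27 between guide 4 and guide 2 (adjusted p = 0.9996). For Ccl6, guide 2 gave -2.01 against old controls (adjusted p = 0.551), and it was called there without old control replicate 1 (adjusted p = 0.0456).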

How the data were processed

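Per the labels, whole-liver RNA of male mice was sequenced in 10 libraries, and the values used are the authors' deposited raw read counts per gene symbol, 1 column per liver. The submitters' processing notes name Trim Galore 0.4.4, FastQC 0.11.8, STAR 2.5.3a, HOMER and the mm10 genome. The counting options, strand use and treatment of reads shared by near-identical genes are not given in the sources used here, so Ccl21b and Ccl21c are uncertain.

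Counts were tested with edgeR 4.0.16 in R 4.3.3 (quasi-likelihood test, TMM scaling, filter at a minimum count of 10 and a total of 15), with Benjamini-Hochberg adjustment over 13909 genes and all 3 groups in 1 fit. A second fit split the knockout livers by guide. CPM used effective library sizes. DESeq2 1.42.0, limma 3.58.1 (voom), other size factors, a total-count filter, fits of the compared groups alone and leaving out each liver were alternatives. The edgeR step was tested on simulated data. Exon lengths came from GENCODE M21 (GRCm38).

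Given in full are members past the threshold, the 3 most abundant of each role, and ligand and receptor pairs with a mean count of at least 10 in both partners. Other members are given by ranges. The members and lists were chosen with earlier results of these data known, and the eosinophil list after the values were seen. No 2 libraries of a group agreed within sampling noise. The values of 1 tested member are not reported here, though counts and sums over members include it.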

Additional observations from a re-analysis of the deposited data

Results flagged for a closer look

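Within the 4 livers labelled knockout, 7 of the 47 members had 1 liver set apart from the other three by Dixon's gap ratio (95% level), where chance flags about 1 in 20 groups, or 2.35 members. That expectation takes the members as independent, which was not tested. Knockout replicate 2 was the high liver for 5 of them. The gap was 0.914 of the range for Cxcl13, 22.8 CPM against at most 3.20 CPM, 0.899 for Ccl7, 2.14 against at most 0.895 CPM, and 0.877 for Cxcl2, 0.960 against at most 0.424 CPM. Ccl24 followed with 0.852, 5.15 against at most 1.46 CPM, and its receptor Ccr3 with 0.8292, 1.13 against at most 0.291 CPM. Knockout replicate 4 was set apart for Ccr9, highest there at 0.467 CPM (0.930), and for Cxcr2, lowest there at 0.408 CPM (0.852). For Ccr9 this was 8 counts against 4, 5 and 5 in the other knockout livers, a gap small enough for counting noise.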

How the results depend on the processing

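For old controls against young livers, the 10 members called became 13 with DESeq2, 11 with the total-count filter, 4 with limma voom and 4 with only the compared groups in the fit, and 1 to 20 when single livers were left out. Calls over all genes went from 3172 to 1192 with only the compared groups and to between 396 and 5327 without single livers. For knockout against young, 7 members became 10 with DESeq2, 1 with limma voom, 13 with only the compared groups and 0 to 6 without single livers. All genes there went from 1614 to 2803 with DESeq2, 969 with limma voom, 4223 with only the compared groups and 56 to 1652 without single livers. Knockout against old controls gave 0 to 1 members and 0 to 3 genes without single livers, and 8 genes with DESeq2. Guide 2 against old controls gave 1 member with DESeq2 and 0 to 1 without single livers. The cause was not tested, though fewer samples enter the fit when livers are left out.

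With old control replicates 2 and 3 both left out, a setting chosen after seeing the data, signs turned for age in Ccl6 (-0.24), Cxcl13 (-0.92), Ccl8 (-0.047) and Ccl9 (-0.16), and for knockout against old controls in Ccl6 (0.47) and Cxcl13 (2.08). Leaving out single livers gave log2 values from -0.28 to 2.73 for Ccl24 and -0.21 to 0.33 for Ccl9 with age, -0.86 to 0.11 for Ccr2 and -0.41 to 0.83 for Cxcr3 in knockout against old controls, and -0.18 to 1.34 for Ccl5 and -0.10 to 0.52 for Cxcl10 in guide 4 against old controls. In knockout against old controls, Cxcr3 was also -0.00081 with the other size factors and -0.00017 with DESeq2. No paired analysis was possible because the replicate numbers only name livers and guides occupy different numbers. Members near 3 counts per liver are at the limit that the depth allows.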
